A study of Mus musculus with 96 samples.

Results

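Spleen cells that express Mki67 were compared with spleen cells that do not, within 2 leukemic mice. Single spleen cells from a pair of moribund mice with acute myeloid leukemia were profiled by RNA-seq, 96 cells in all and 48 from each animal, called mouse 1 and mouse 2 here. Both animals had the genotype Flt3ITD/ITD;Dnmt3afl/- with MxCre, so both carried an activating internal tandem duplication of the receptor kinase Flt3 on both alleles and, at Dnmt3a, a floxed allele over a null allele. Cre was driven by the interferon-inducible Mx1 promoter, which is not limited to blood cells, and the ages of the animals were not given. No measurement used here shows for a single cell that it was leukemic. Cells had been selected on c-Kit with magnetic beads and captured on a Fluidigm C1 chip, which isolates each cell in its own chamber. The floxed controls without MxCre named in the labels were not analysed here, and the comparison is between cells of the same genotype.

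The cells were chosen by measured values. Class II-low cells were those selected on H2-Aa, a chain of the class II antigen-presenting molecule, below 1000 TPM (an abundance scaled to the same total of 1000000 transcripts in each cell). They numbered 62 of the 96 cells. Of these, 30 had Mki67 at 10 TPM or more (14 in mouse 1 and 16 in mouse 2) and are called Mki67-expressing, and 32 had less (20 and 12) and are called Mki67-low. The 96 libraries came from 96 different cells. Both classes were present in each mouse and were compared within it. Cells are not replicates, so no p-value is given, and what holds in both mice is the only replication. The animal and its capture cannot be told apart, since the column prefix divides the cells exactly as the mouse does.

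Mki67 encodes Ki-67, a protein that coats mitotic chromosomes and is made in cycling cells and lost in resting ones. In a dividing cell the genes for DNA replication are switched on first, largely through E2F factors, and the genes for chromosome segregation follow, largely through promoters that carry a cell cycle homology region (CHR) and CCAAT boxes. In resting cells the same promoters are held silent by the pocket proteins and the DREAM complex. Blood stem cells divide seldom, and their committed offspring divide often.

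In TPM, Mki67 divided the class II-low cells into groups with a wide gap. The gene lies at chr7:135689784-135716361 on the minus strand (GRCm38, GENCODE annotation, protein coding). In mouse 1, Mki67 ran from 32.8 to 382 TPM, median 124, in the 14 expressing cells, and from 0 to 0.36 TPM in the 20 low cells. Mouse 2 had from 12.5 to 198 TPM, median 100.5, in the 16 expressing cells, and from 0 to 3.47 TPM in the 12 low cells. The cells nearest the threshold in mouse 2 were an expressing cell at 12.5 TPM, with 28.7 TPM next above it, and low cells at 2.90 and 3.47 TPM. For H2-Aa the class II-low cells ended at 98.3 TPM in mouse 1 and 114.5 TPM in mouse 2, and the class II-high cells began at 20800 and 6732 TPM. These TPM values chose the cells and are no result. In RPKM, another unit that the authors deposited, the median of Mki67 was 0.172 in expressing and in low cells of both mice. The gap is thus one of the TPM values.

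The share of Mki67-expressing cells, which rests on the values that chose the cells, is given as a description. Mouse 1 had 41.2% of class II-low cells (14 of 34, exact 95% interval 24.6 to 59.3) and 14.3% of class II-high cells (2 of 14, 1.78 to 42.8) expressing cells. Mouse 2 had 57.1% (16 of 28, 37.2 to 75.5) and 0 of 20, which allows up to 16.8%. The intervals cover the counting of cells only. Class II-high cells also had fewer genes detected, with a median of 2921.5 genes at 1 TPM or more in mouse 1 and 2581 in mouse 2.

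Expressing cells also differed from low cells in how many genes were detected, which stands in for depth since TPM keeps none. In mouse 1 the detected genes, those reaching 1 TPM, numbered 2816 to 5559, median 4491, in expressing cells and 2746 to 4774, median 3641, in low cells. For mouse 2 the count was 1768 to 6018, median 3894.5, in expressing cells and 2142 to 4564, median 3710.5, in low cells. The expressing cells of mouse 2 were of 2 kinds. In 7 of them S100a8, a calcium-binding protein of neutrophils, stood at 1000 TPM or more, the 10 most abundant genes held a median of 54.8% of all TPM, and a median of 3010 genes was detected. The other 9 had a median of 5037 genes, against 3816 in the 9 low cells with S100a8 below 1000 TPM. Mouse 1 had 1 cell with S100a8 at 1000 TPM or more, a low cell, and mouse 2 had 3 such low cells.

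**Figure D1:**
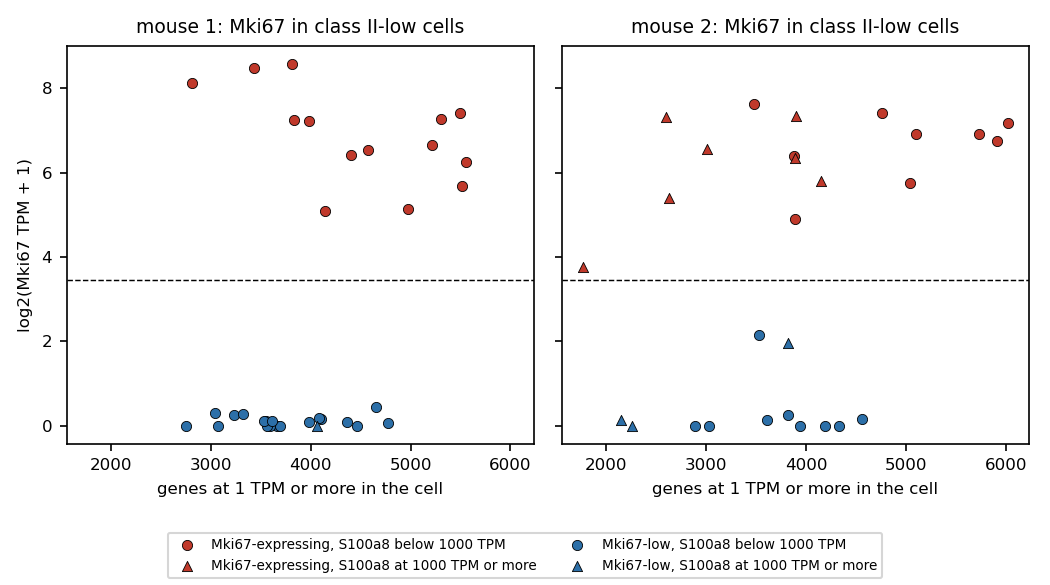
Mki67 level against the number of detected genes in each class II-low cell; the x axis gives genes at 1 TPM or more, the y axis log2(Mki67 TPM + 1), and the dashed line is 10 TPM. Red points are expressing cells, blue points low cells and triangles cells with S100a8 at 1000 TPM or more; in mouse 1 no cell lies between 0.36 and 32.8 TPM, and 7 expressing cells of mouse 2 are triangles.

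Each gene was described by the difference between expressing and low cells in mean log2(TPM + 1), taken within a mouse with detected-gene number as a linear term (the adjusted difference). A gene entered with 1 TPM or more in at least 5 class II-low cells of each mouse. The 7042 genes that entered had a median adjusted difference of -0.06 in mouse 1 and -0.14 in mouse 2. Without the term these medians were 0.35 and 0.30, so unadjusted differences are best read against that shift. In both mice, 325 genes were higher by 1 or more in expressing cells, 4.62% of those entering, and 351 were lower by 1 or more, 4.98%. In a single mouse the counts were 1324 higher (18.8%) and 1422 lower (20.2%) in mouse 1, and 1193 higher (16.9%) and 1489 lower (21.1%) in mouse 2. With shares of this size, some genes would pass in both mice even if the mice were unrelated. How many would do so was not tested.

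Genes of G2 and mitosis made up the clearest group among the higher genes. Of the 65 members that entered, of 71 in the list, 49 were higher by 1 or more in both mice, 75.4% against the 4.62% of all genes, and 0 were lower. The median adjusted difference was 2.82 in mouse 1 and 1.90 in mouse 2, and 62 members lay above 0 in both. The counts describe the split and do not support it: a gene could enter through expressing cells alone, and only 8 of the 65 had 1 TPM or more in 5 low cells of each mouse. The count was 28 of 65 with a pseudocount of 10, 20 of 57 without the cells with S100a8 at 1000 TPM or more, and 1 of 10 in the RPKM table. Over all genes the same settings gave 89 of 7042, 327 of 6295 and 31 of 1255. In mouse 2 without the cells with S100a8 at 1000 TPM or more, the median was 0.82 adjusted and 3.04 unadjusted. In the remaining cells of mouse 2 detected-gene number ran from 3474 to 6018 in expressing and from 2883 to 4564 in low cells, and its part cannot be told apart from that of Mki67.

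Top2a, the topoisomerase that untangles chromosomes before they separate, was at 1.35 to 1067 TPM, median 396, in expressing cells of mouse 1 and at 0 to 218 TPM, median 0.40, in low cells. In mouse 2 it was at 0.25 to 1031 TPM, median 296, in expressing cells and at 0 to 408 TPM, median 0.28, in low cells. The ranges overlapped in both mice: 13 of 14 and 12 of 16 expressing cells reached 10 TPM, as did 3 of 20 and 3 of 12 low cells. The adjusted differences were 5.20 and 3.36, and 0.10 in mouse 2 without the cells with S100a8 at 1000 TPM or more. Ccnb1, the cyclin that drives entry into mitosis, reached 10 TPM in 10 of 14 and 10 of 16 expressing cells and in 1 of 20 and 1 of 12 low cells. Its medians were 182 and 69.2 TPM in expressing cells and 0 in low cells of both mice, with adjusted differences of 4.47 and 3.09. Its partner kinase Cdk1 reached 10 TPM in 11 of 14 and 12 of 16 expressing cells and in 3 of 20 and 3 of 12 low cells.

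Birc5, the survivin subunit of the chromosomal passenger complex, had a median of 344 TPM in expressing and 0.17 TPM in low cells of mouse 1, and 306 and 0.42 TPM in mouse 2. No low cell of mouse 1 reached 10 TPM of Birc5, and 2 of 12 low cells of mouse 2 did. Plk1, a mitotic kinase, reached 10 TPM in 7 of 14 and 8 of 16 expressing cells, in 0 of 20 low cells of mouse 1 and in 1 of 12 of mouse 2. Ncapg, a condensin subunit, had adjusted differences of 3.99 and 2.66, Nusap1, a spindle protein, of 3.67 and 2.90, and Cdca3 of 3.83 and 3.51. Cks2, a small subunit of cyclin-dependent kinases and the most abundant member, had means of 1180 and 232 TPM in mouse 1 and of 534 and 236 TPM in mouse 2, with adjusted differences of 2.78 and 0.76. Cks2 was thus present in many low cells, 17 of 20 and 7 of 12 at 10 TPM or more, where Ccnb1 and Plk1 were mostly at 0. The 3 members below 0 in mouse 2 were Cks1b (4.54 in mouse 1, -0.51 in mouse 2), Psrc1 (0.48 and -0.36) and Pttg1 (0.57 and -0.54), named after their values were seen.

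**Figure D2:**
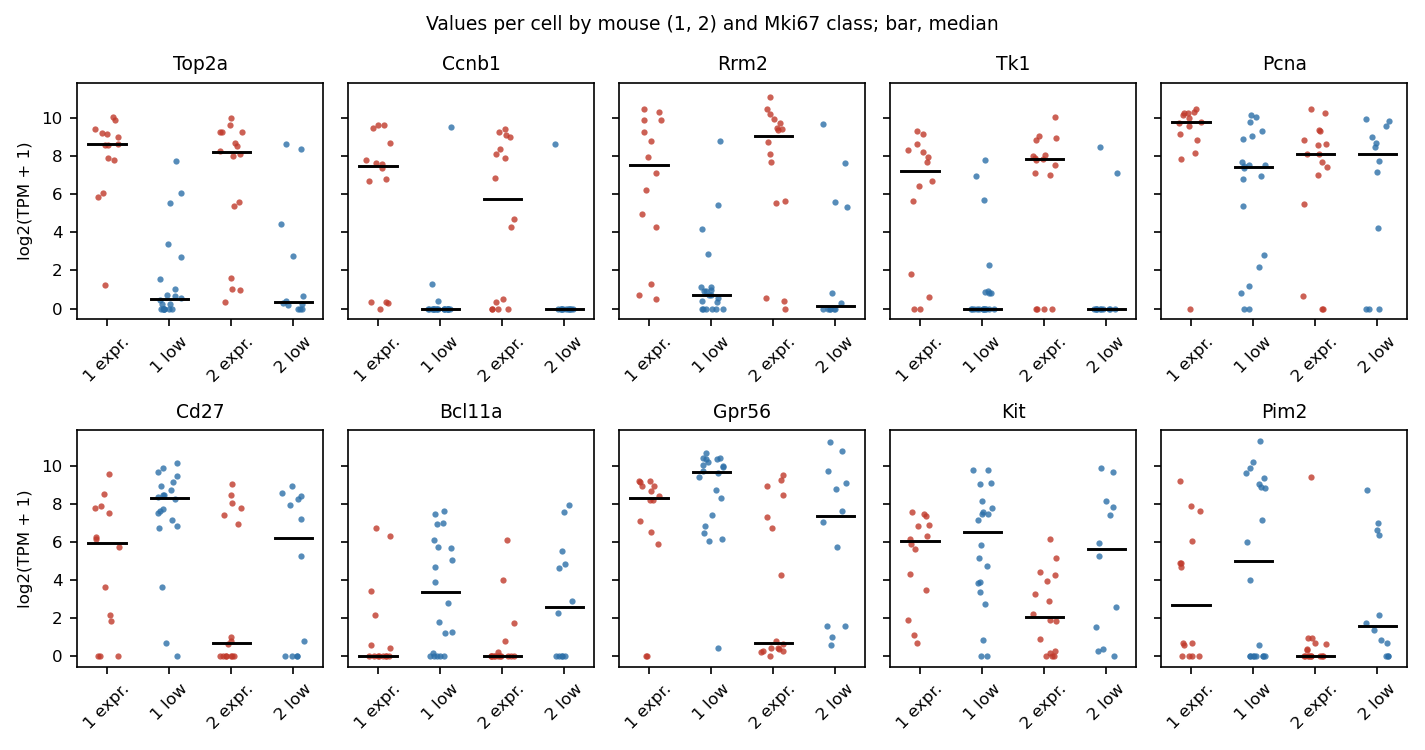
TPM of 10 genes in each class II-low cell, as log2(TPM + 1) on the y axis, by mouse (1 or 2) and class (expr., Mki67-expressing; low, Mki67-low); each point is a cell and each bar a median. Top2a, Ccnb1, Rrm2 and Tk1 are near 0 in most low cells, Pcna is not, and Cd27, Bcl11a, Gpr56, Kit and Pim2 have lower medians in expressing than in low cells of both mice.

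Promoters of the members were searched for 3 kinds of motif on both strands: the CHR (TTTGAA), the CCAAT box (CCAAT) and E2F sites (TTTCCCGC, TTTGGCGC, TTTCGCGC or TTTGCCGC). Windows of 250 bases before to 50 after each RefSeq start (GRCm38.p6) were available for 52 of the 65 G2 and mitosis genes, and no searched motif contains another. Both a CHR and a CCAAT box were in 58.9% of the 56 windows of G2 and mitosis genes. The same pair was in 5.61% of the 7234 windows of all genes that entered, in 8% of the 50 windows of the S phase list, in 21.3% of the windows of genes higher in both mice and in 3.62% of those lower in both. E2F letters were in 32% of S phase windows, 10.7% of G2 and mitosis windows and 4.56% of all windows of genes that entered. A match is a description of letters and not a binding site.

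The 250 bases before the start are shown for 4 genes, since their letters show how the boxes are laid out. They are the genes of the G2 and mitosis and S phase lists with the largest difference held in both mice and a motif match. Where a gene had more than 1 window, the one with the most kinds of motif was taken. The layout shown is thus partly chosen for its matches. Capitals mark CHR and CCAAT letters in either orientation.
Top2a, chr11:99024190-99024439, minus strand: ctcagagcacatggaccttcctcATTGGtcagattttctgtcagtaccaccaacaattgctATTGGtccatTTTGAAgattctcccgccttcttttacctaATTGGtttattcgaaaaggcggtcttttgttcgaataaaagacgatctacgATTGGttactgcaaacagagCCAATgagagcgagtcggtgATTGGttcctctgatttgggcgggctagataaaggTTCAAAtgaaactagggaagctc
Asf1b, chr8:83955444-83955693, plus strand: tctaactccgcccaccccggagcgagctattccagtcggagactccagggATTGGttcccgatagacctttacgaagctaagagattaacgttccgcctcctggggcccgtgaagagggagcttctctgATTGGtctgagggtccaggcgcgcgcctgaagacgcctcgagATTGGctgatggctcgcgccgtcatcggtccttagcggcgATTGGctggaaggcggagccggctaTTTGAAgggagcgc
Cdca3, chr6:124829926-124830175, plus strand: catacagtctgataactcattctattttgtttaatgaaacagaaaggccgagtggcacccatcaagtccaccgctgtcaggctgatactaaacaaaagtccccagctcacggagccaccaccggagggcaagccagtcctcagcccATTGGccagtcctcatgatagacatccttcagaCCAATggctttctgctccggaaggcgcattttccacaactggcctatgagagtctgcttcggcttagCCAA
Rrm2, chr12:24708004-24708253, plus strand: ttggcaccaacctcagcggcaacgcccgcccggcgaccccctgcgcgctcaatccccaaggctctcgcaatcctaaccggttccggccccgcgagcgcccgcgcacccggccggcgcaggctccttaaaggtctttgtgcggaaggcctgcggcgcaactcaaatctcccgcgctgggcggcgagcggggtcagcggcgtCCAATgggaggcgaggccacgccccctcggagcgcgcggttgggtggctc
Top2a carries 6 CCAAT boxes and a CHR that begins 23 bases before the start, with a CHR match further up at 179 bases. Asf1b carries 4 CCAAT boxes and a CHR 14 bases before the start. Cdca3 carries 3 CCAAT boxes, and its CHR begins 30 bases after the start, beyond the stretch shown. Rrm2 carries 1 CCAAT box and no other searched letters in its window, which says nothing about the factors that act there.

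Genes of S phase were higher as well, with more variation among members than in the mitotic list. Of 52 members that entered, of 57 in the list, 22 were higher by 1 or more in both mice and 0 were lower. The share higher was 42.3%, against 4.62% of all genes, and the medians were 1.46 and 1.13. Of the 52, 26 had 1 TPM or more in 5 low cells of each mouse and 50 in 5 expressing cells. Of the 22 higher genes, 8 were among the 26 and all 22 among the 50, so the count describes the split and does not support it. Without the cells with S100a8 at 1000 TPM or more, 8 of 50 were higher in both, against 327 of 6295 genes. The median of mouse 2 was then 0.044 adjusted and 1.59 unadjusted. Rrm2, the regulated subunit of ribonucleotide reductase, had medians of 191 and 543 TPM in expressing cells and of 0.66 and 0.12 TPM in low cells of mouse 1 and mouse 2. It reached 10 TPM in 11 of 14 and 13 of 16 expressing cells, and in 3 of 20 and 4 of 12 low cells. Tk1, the thymidine kinase of the salvage pathway, had adjusted differences of 4.18 and 3.94, and Rfc4, a subunit of the clamp loader, of 3.36 and 3.08.

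Asf1b, a histone chaperone that hands histones to new DNA, had the largest adjusted difference held in both mice, 7.82 and 4.46. In mouse 1 it reached 10 TPM in 13 of 14 expressing cells, median 177 TPM, and in 0 of 20 low cells, where the highest value was 1.0 TPM. In mouse 2 it reached 10 TPM in 12 of 16 expressing cells, median 215 TPM, and in 1 of 12 low cells, at 428 TPM. Its adjusted difference in mouse 2 was 0.44 without the cells with S100a8 at 1000 TPM or more. Pcna, the sliding clamp and the most abundant member, did not divide the classes in this way. It reached 10 TPM in 14 of 20 and 9 of 12 low cells, with medians of 174 and 284 TPM there against 891 and 276 TPM in expressing cells. Its adjusted difference was 2.81 in mouse 1 and -0.17 in mouse 2, where it was above 0 in 4 of 11 alternatives. Of the helicase subunits, Mcm5 was at 2.33 and 2.76 in mouse 1 and mouse 2, and Mcm2 at 0.80 and -0.70 (both named after their values were seen).

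List members at 10 TPM or more were counted in each cell, and among expressing cells the most frequent outcome was to hold both lists. A cell was placed by whether it held at least 50% of the 52 S phase members (26) and of the 65 G2 and mitosis members (33), and this rule was set once the values were known. Of the 14 expressing cells of mouse 1, 3 held S phase members only, 6 both lists, 3 mitotic members only and 2 neither. Of the 16 of mouse 2, 4 held S phase members only, 8 both, 1 mitotic members only and 3 neither. Of the 20 low cells of mouse 1, 5 held S phase members only and 15 neither, and of the 12 of mouse 2, 3 held S phase members only, 1 mitotic members only and 8 neither. Within 3 members of a cut lay 3 expressing and 3 low cells of mouse 1, and 5 and 3 of mouse 2. These are ranges of a count that moves with detected-gene number, and not measured phases.

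So low Mki67 did not go with silence of the whole cycle list in every cell. In mouse 1, 5 low cells with Mki67 at 0.14 TPM or less held 28 to 35 S phase members and at most 12 G2 and mitosis members. In mouse 2, the low cell with 3.47 TPM of Mki67 held 43 G2 and mitosis members, and a low cell with 0.11 TPM held 44 S phase and 24 G2 and mitosis members. Conversely, the expressing cell of mouse 2 nearest the threshold held 2 S phase members and 1 G2 and mitosis member, with 1768 genes detected and S100a8 at 157968 TPM. The expressing cell with the highest Mki67 of mouse 2, 198 TPM, held 19 and 8. Of the class II-high cells, 1 of 14 in mouse 1 and 0 of 20 in mouse 2 passed a cut, and that cell, with 51.7 TPM of Mki67, held 27 S phase and 40 G2 and mitosis members.

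**Figure D3:**
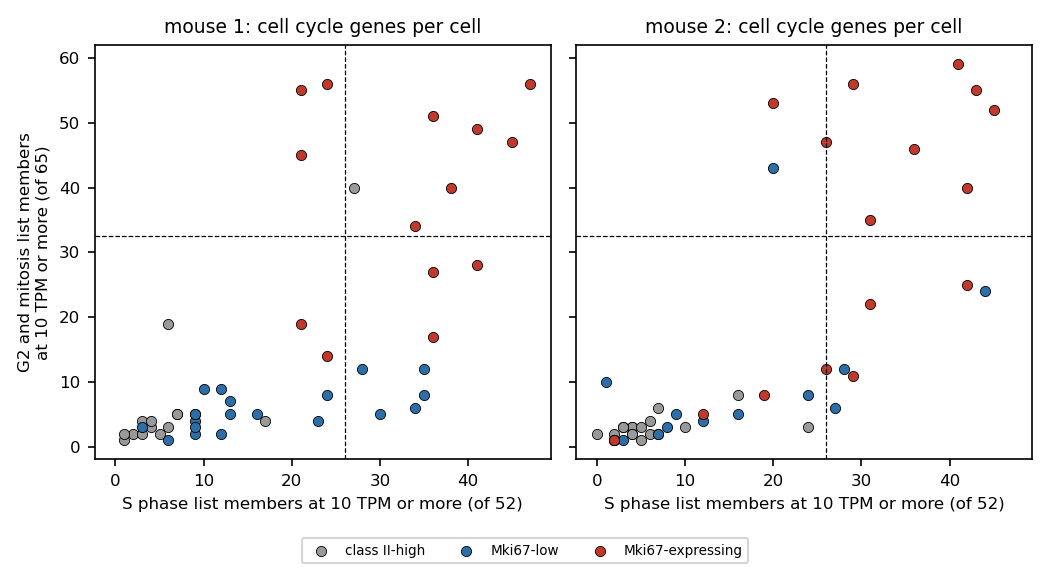
Number of the 52 S phase list members (x axis) and of the 65 G2 and mitosis list members (y axis) at 10 TPM or more in each cell, with dashed lines at 50% of each list. Red, Mki67-expressing; blue, Mki67-low; grey, class II-high cells; blue points lie along the bottom up to 35 S phase members in mouse 1, and 1 blue point of mouse 2 lies at 43 G2 and mitosis members.

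Histones, repair genes and genes of nuclear transport were among the higher genes, with counts to be read against 4.62% higher and 4.98% lower over all genes. Of 28 histone and chromatin packaging genes, 12 were higher by 1 or more in both mice and 2 were lower, with medians of 1.65 and 0.73. Of the 28, 20 passed the filter in low cells alone, and 8 of the 12 higher genes were among these 20. Without the cells with S100a8 at 1000 TPM or more, 10 were higher and 0 lower, and the median of mouse 2 was 0.16. Linker histone Hist1h1b was at 0 in all 20 low cells of mouse 1 and reached 28.9 TPM in 1 of 12 low cells of mouse 2, while 6 of 14 and 11 of 16 expressing cells reached 10 TPM. Hist1h1e had adjusted differences of 2.80 and 4.23, and Hist1h2ae of 3.51 and 3.67. Histone genes are near copies of each other, so reads may be shared among them. The 2 that were lower, a share of the list near that of all genes and 0 without the detected-gene term, were H2afy, a macroH2A variant (-1.55 and -1.90, and 0.11 in mouse 2 without the cells with S100a8 at 1000 TPM or more), and Hmga1, an architectural protein (-1.09 and -1.43, and 0.06 in mouse 1 unadjusted). Both are named after their values were seen. Of 15 genes of replication-coupled repair, 5 were higher, Rad51ap1 most (4.09 and 2.62), and the list's medians were 1.19 and 0.82. All 15 passed the filter in expressing cells alone and 2 in low cells alone, and none of the 5 was among these 2. Leaving out the same cells, 0 of 10 were higher and the median of mouse 2 was 0.039. Of 22 tubulin, lamina and nuclear transport genes, 9 were higher, with medians of 1.68 and 0.80, the latter -0.017 in the RPKM table. Of the 22, 17 passed the filter in low cells alone, and 6 of the 9 higher genes were among these 17. With the cells with S100a8 at 1000 TPM or more left out, 4 of 22 were higher and the median of mouse 2 was 0.40. They included Nup107, a subunit of the nuclear pore (2.60 and 2.99), Tmpo, a lamina-associated protein (1.71 and 2.24), and Kpna2, an import receptor (1.44 and 2.52).

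Among regulators of the cycle, few moved in both mice, with counts to be read against 4.62% higher and 4.98% lower over all genes. Of 10 E2F and pocket protein genes, 3 were higher by 1 or more: E2f8, a repressor of the E2F family (2.92 and 3.64), Tfdp1, the partner of E2F factors (2.79 and 1.34, and -0.57 in mouse 2 without the cells with S100a8 at 1000 TPM or more), and Rbl1, a pocket protein (1.69 and 1.46, and -0.96 in mouse 2 with the threshold at 100 TPM). Of the 10, 6 had 1 TPM or more in 5 expressing cells of each mouse and 4 in 5 low cells. All 3 higher genes were among the 6 and 1 was among the 4, so the count describes the split and does not support it. E2f8 reached 10 TPM in 8 of 14 and 11 of 16 expressing cells and in 1 of 20 and 1 of 12 low cells. Of 15 G1 cyclins, kinases and Myc-family genes, 0 passed a difference of 1 in both mice in either direction. Of 18 CDK inhibitors and antiproliferative genes, 0 were higher and 2 were lower, Ypel5 (-3.28 and -1.18, and 0.20 in mouse 2 when Top2a split the cells) and Sesn1, a stress-induced inhibitor of growth signalling (-1.30 and -1.47, with 2 of 10 alternatives above 0 in mouse 2). Cdkn1b, the p27 inhibitor of cyclin-dependent kinases, differed in opposite directions, -2.07 in mouse 1 and 1.13 in mouse 2. In mouse 1 it had medians of 8.01 TPM in expressing and 27.2 TPM in low cells, and in mouse 2 of 14.4 and 3.33 TPM. Cdkn1a, the p21 inhibitor, lay near 0 in both (-0.12 and -0.33).

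**Figure D4:**
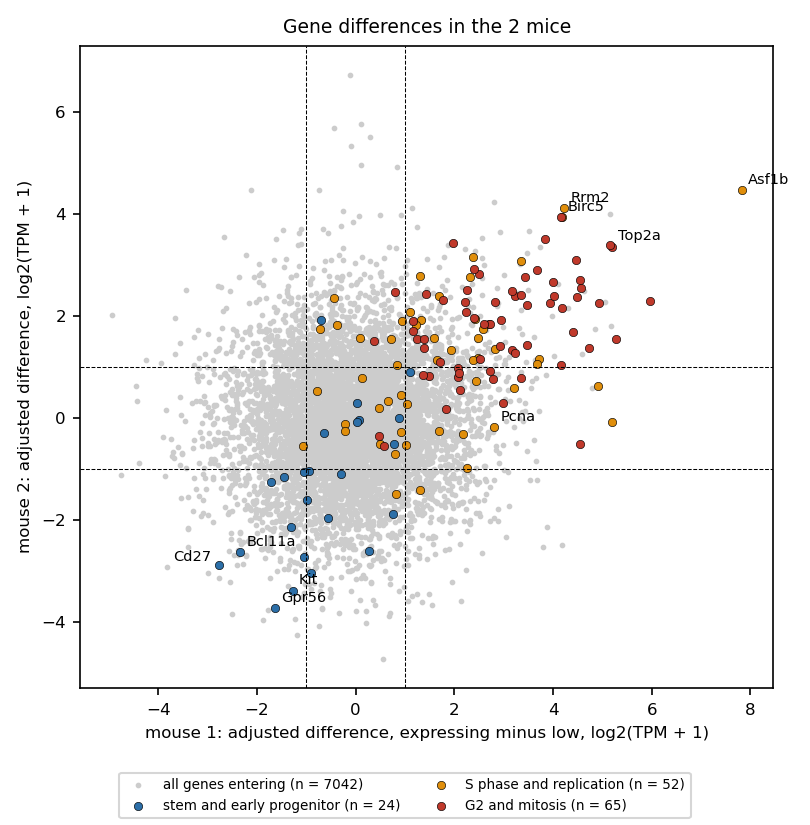
Adjusted difference between expressing and low cells in mean log2(TPM + 1), mouse 1 on the x axis and mouse 2 on the y axis, 1 point a gene, with dashed lines at -1 and 1. Red points (65 G2 and mitosis genes) lie mostly in the upper right, orange points (52 S phase genes) spread from there toward 0 in mouse 2, and blue points (24 stem and early progenitor genes) lie mostly in the lower left.

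Genes of stem and early progenitor cells were lower in Mki67-expressing cells. Of 24 members that entered, of 34 in the list, 9 were lower by 1 or more in both mice (the share among all genes was 4.98%) and 0 were higher. The list medians were -0.80 in mouse 1 and -1.21 in mouse 2 adjusted, and -0.35 and -0.70 unadjusted. Both stayed below 0 in all 11 alternatives, but some came close to 0. Without the cells with S100a8 at 1000 TPM or more, the median of mouse 2 was -0.37 adjusted and -0.037 unadjusted. In the RPKM table the median of mouse 1 was -0.018. The counts moved more: 4 were lower and 1 higher without the detected-gene term, and 1 of 6 was lower in the RPKM table. The 9 were Cd34, Kit, Cd48, Erg, Lmo2, Muc13, Gpr56, Bcl11a and Meis1, of which Erg and Lmo2 are named after their values were seen. Without the cells with S100a8 at 1000 TPM or more, 3 of the 9 lay above 0 in mouse 2: Cd48 (1.44), Meis1 (0.66) and Lmo2 (0.44). Of the 24 members, 16 had 1 TPM or more in 5 low cells of each mouse and 15 in 5 expressing cells.

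Bcl11a, a zinc finger repressor of fetal globin, reached 10 TPM in 2 of 14 and 2 of 16 expressing cells and in 10 of 20 and 5 of 12 low cells. Its medians were 0 TPM in expressing cells of both mice and 9.88 and 5.09 TPM in low cells. The adjusted differences were -2.34 and -2.62, and -2.58 and -4.03 without the cells with S100a8 at 1000 TPM or more. Gpr56, an adhesion receptor of hematopoietic stem cells, had medians of 317 TPM in expressing and 821 TPM in low cells of mouse 1, and of 0.62 and 162 TPM in mouse 2. Its adjusted differences were -1.64 and -3.73. The ranges of both genes overlapped between the classes in both mice. Muc13, a membrane mucin, had medians of 361 and 569 TPM in mouse 1 and of 12.4 and 74.8 TPM in mouse 2, with adjusted differences of -2.76 and -2.88. In the RPKM table the differences of Muc13 were -2.51 and -3.72.

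Kit, the receptor on which the cells had been selected, was lower in expressing cells of both mice. In mouse 1 it was at 0.60 to 191 TPM, median 63.9, in expressing cells and at 0 to 875 TPM, median 98.0, in low cells. In mouse 2 it was at 0 to 68.5 TPM, median 3.14, in expressing cells and at 0 to 932 TPM, median 48.4, in low cells. The ranges overlapped, and the highest values lay in low cells. The adjusted differences were -1.27 and -3.38, the unadjusted ones -0.56 and -2.58, and 0 of 10 alternatives turned the direction. Cd34, a surface marker of progenitors, depended on the processing: -1.04 and -2.72 adjusted, 0.032 and -1.05 unadjusted. Flt3 had adjusted differences of -0.95 and -1.05 and unadjusted ones of 0.51 and -0.43, and it reached 10 TPM in 6 of 14 and 3 of 16 expressing and 5 of 20 and 3 of 12 low cells. The order of the classes for Flt3 thus turned with the detected-gene term in mouse 1.

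Some targets of STAT5, a factor that Flt3-ITD and Kit signalling activate, were lower. Among 11 genes of STAT5 and MAPK feedback that entered, of 21 in the list, 3 were lower by 1 or more in both mice, against 4.98% of all genes, and 0 were higher. Of the 11, 7 had 1 TPM or more in 5 low cells of each mouse and 4 in 5 expressing cells. All 3 lower genes were among the 7 and 1 was among the 4, so the count describes the split and does not support it. When Top2a split the cells, 0 of 11 were lower. The medians were -1.01 and -0.38, which were 0.12 and 0.050 in the RPKM table, where 1 member entered. Pim2, a survival kinase, had adjusted differences of -1.74 and -2.52, Cish, an inhibitor of cytokine signalling, of -1.47 and -2.15, and Pim1 of -2.19 and -1.12. In mouse 2, Pim2 reached 1 TPM in 1 of 16 expressing and 7 of 12 low cells. In mouse 1 it reached 1 TPM in 7 of 14 expressing and 11 of 20 low cells, with highest values of 581 and 2509 TPM. Cish in mouse 2 was 0.55 when Top2a split the cells. Socs2, the most abundant member, was at -0.91 and -2.51, and at 0.51 in mouse 2 without the cells with S100a8 at 1000 TPM or more.

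The 15 genes with the largest difference toward low cells in both mice were of varied function. Cd27, a receptor of the tumor necrosis factor family present on early lymphoid and multipotent progenitors, reached 10 TPM in 9 of 14 and 6 of 16 expressing cells and in 18 of 20 and 7 of 12 low cells. Its medians were 61.4 and 0.61 TPM in expressing and 316 and 91.9 TPM in low cells, and its adjusted differences of -3.82 and -2.92 kept their sign in 10 of 10 alternatives. Sh2d5, an adaptor protein, had adjusted differences of -2.77 and -3.13 and medians of 0.39 and 0.19 TPM in expressing against 43.8 and 29.3 TPM in low cells. Tox, a nuclear factor of lymphoid development, had adjusted differences of -3.39 and -2.52, and 0.10 in mouse 2 with the threshold at 100 TPM. Others of the 15 were Serinc1 (-2.55 and -3.21), the sugar transporter Slc50a1 (-2.50 and -3.84), the mitochondrial deacetylase Sirt3 (-2.47 and -2.68) and Ptprcap, a partner of CD45 (-2.41 and -2.89). Lck and Cd79b, lymphoid signalling genes, had differences of -3.56 and -2.64 in mouse 1 and of 0.41 and 0.46 in mouse 2, and the difference between the mice was not tested. Cd3e and Cd3g of T cells, and Cd79a and Ms4a1 of B cells, were at 0 TPM in all 62 cells.

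Genes of granulocyte-monocyte progenitors showed no common direction. Of 23 that entered, 0 were higher and 5 lower by 1 or more in both mice, against 4.98% lower over all genes. Without the detected-gene term 5 were higher and 1 lower, against 729 and 100 of all 7042 genes. The list had medians of -1.01 and 0.69 adjusted and of 0.54 and 0.87 unadjusted, so the direction in mouse 1 turned with the detected-gene term. Mpo, the myeloperoxidase of azurophil granules, had medians of 1014 TPM in expressing and 748 TPM in low cells of mouse 1 and of 2069 and 1186 TPM in mouse 2. Its adjusted differences were -1.89 and -1.0, and its unadjusted ones 0.90 and 0.73. Prtn3 (-1.42 and -1.78 adjusted, 0.59 and -0.08 unadjusted) and Ctsg (-1.38 and -2.54, 1.53 and -0.79), granule proteases, turned likewise in mouse 1. Plac8 was lower in both fits (-2.58 and -1.87, and -1.44 and -1.23), but lay at 0.14 in mouse 1 in the RPKM table and at 0.052 in mouse 2 without the cells with S100a8 at 1000 TPM or more.

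Late neutrophil genes moved with the Mki67 classes in mouse 2 and their part in the other results was not tested beyond leaving those cells out. Of 8 that entered, 5 lay above 0 in both mice and 0 were higher by 1 or more in both, and the medians were 0.11 in mouse 1 and 5.42 in mouse 2. Without the cells with S100a8 at 1000 TPM or more, the median of mouse 2 was 0.53 adjusted and -0.24 unadjusted. The summed level of the 16 markers in the TPM table ran from 9.8 to 691 TPM in expressing and from 3.8 to 1602 TPM in low cells of mouse 1. In mouse 2 it ran from 40.9 to 536271 TPM, median 435, in expressing and from 20.5 to 543340 TPM, median 210, in low cells. Ngp, a neutrophil granule protein, had means of 45988 TPM in expressing and 10948 TPM in low cells of mouse 2, but medians of 32.8 and 35.9 TPM. The 7 expressing cells with S100a8 at 1000 TPM or more held 1 to 53 G2 and mitosis members at 10 TPM, median 25, and the 3 such low cells held 1 to 12.

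Summed markers of other lineages overlapped between the classes in both mice. Monocyte and macrophage markers (17 in the table) summed to medians of 779 and 238 TPM in expressing and low cells of mouse 1 and to 5029 and 1092 TPM in mouse 2. The adjusted median of the 8 that entered was -0.32 and 0.55, so sum and adjusted value differed in direction in mouse 1. Of these 8 genes that entered, 1 was higher by 1 or more in both mice, against 4.62% of all genes: Lgals3, a galectin of macrophages. Dendritic markers (18) had summed medians of 1090 and 1401 TPM and of 913 and 1185 TPM, with Ccr9 at 0. Of the 10 that entered, 0 passed a difference of 1 in both mice, and their medians were -0.40 and -1.07, the latter 0.37 without the cells with S100a8 at 1000 TPM or more. Erythroid markers (17) summed to 690 and 1625 TPM and to 1.16 and 3.86 TPM, with Slc4a1 at 0. Megakaryocyte markers (11) summed to 335 and 341 TPM and to 229 and 230 TPM. Mast cell markers (13) summed to 439 and 725 TPM and to 1147 and 863 TPM, with Fcer1a, Cma1 and Tpsab1 at 0. Their part in the gene differences was not tested.

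Ribosome genes lay mostly below 0, and the other growth lists had no common direction. The counts are to be read against 4.62% higher and 4.98% lower over all genes. Of 26 cytosolic ribosome genes, 0 passed a difference of 1 in both mice, and 21 lay below 0 in both. Their medians were -0.21 and -1.47, and 0.14 in mouse 2 without the cells with S100a8 at 1000 TPM or more. Eef1a1, the elongation factor that brings tRNA to the ribosome, had medians of 11974 TPM in expressing and 17647 TPM in low cells of mouse 1 and of 8328 and 11825 TPM in mouse 2. Its adjusted differences were -0.73 and -2.15, with 0 of 11 alternatives above 0 in either mouse. Of 29 ribosome biogenesis genes, 1 was higher and 1 lower in both, and among 27 nucleotide and one-carbon genes also 1 and 1, the higher being Dck, the deoxycytidine kinase (1.87 and 1.58, and -0.20 in mouse 2 without the cells with S100a8 at 1000 TPM or more). Of 25 oxidative phosphorylation genes, 0 were higher and 1 lower, with medians of 0.07 and 0.06 adjusted and 0.88 and 0.68 unadjusted. Myc, a driver of growth genes, had adjusted differences of -0.73 and -2.18, and 0.60 and -0.60 without the term. Of 20 housekeeping genes 0 were higher and 2 lower, of 16 glycolysis genes 0 and 0, of 15 immediate early and heat shock genes 0 and 0, and of 14 p53 target and cell death genes 0 and 1.

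**Figure D5:**
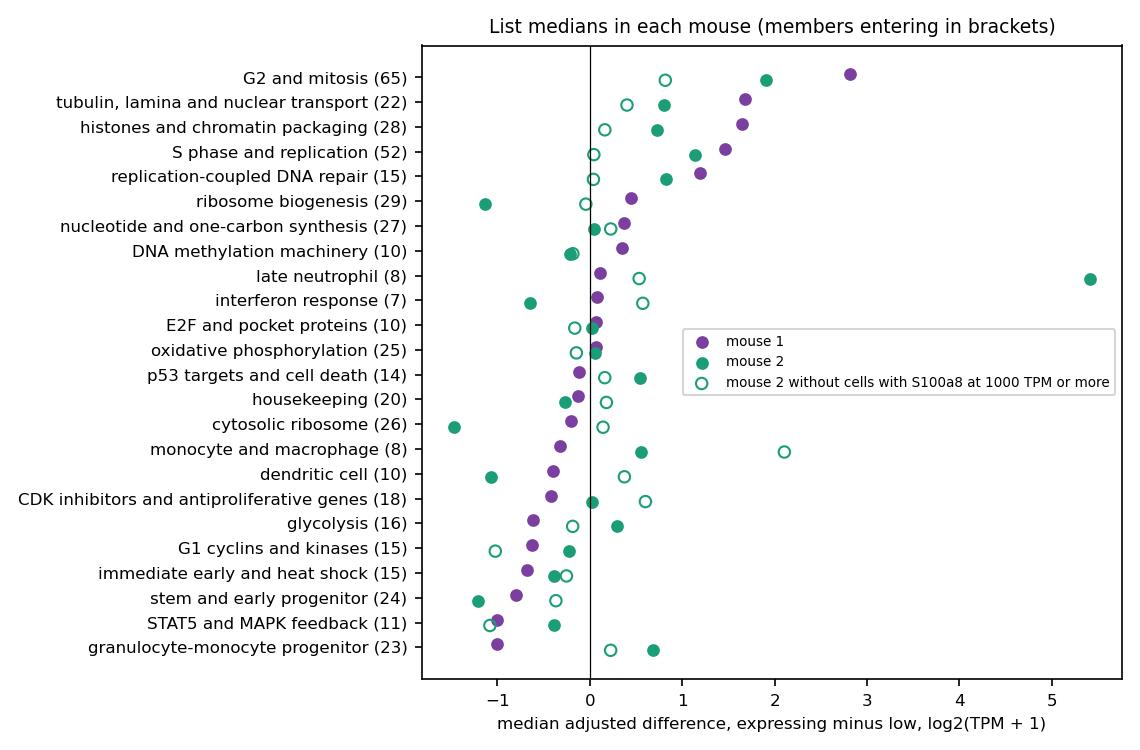
Median adjusted difference between expressing and low cells of each gene list with at least 7 members entering, in log2(TPM + 1) on the x axis, purple for mouse 1 and green for mouse 2. Open green circles leave out the cells of mouse 2 with S100a8 at 1000 TPM or more; G2 and mitosis is highest in mouse 1 (2.82), and late neutrophil moves from 5.42 to 0.53 in mouse 2.

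The genes whose levels ran most like Mki67 were mostly mitotic, 12 of 15 in the G2 and mitosis list. Likeness was the Spearman correlation over class II-low cells after a linear fit on detected-gene number, taken as the smaller of the 2 mice, over 34 and 28 cells. Since Mki67 chose the classes, and the cells of a mouse share capture and pool, it is a description. Kif15, a mitotic kinesin, ranked highest (0.71 in mouse 1 and 0.64 in mouse 2), followed by Birc5 (0.71 and 0.63), Asf1b (0.89 and 0.60), Ncapg (0.81 and 0.60), Nusap1 (0.69 and 0.59), Tpx2 (0.79 and 0.58) and Top2a (0.76 and 0.56). Outside the lists were Neil3, a DNA glycosylase (0.57 and 0.63), and Acsl1, a fatty acid-CoA ligase (0.60 and 0.55). Acsl1 reached 10 TPM in 7 of 14 and 9 of 16 expressing cells and in 1 of 20 and 2 of 12 low cells, with adjusted differences of 3.47 and 3.23.

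Genes of DNA methylation are of interest in this genotype. Dnmt1, the maintenance methyltransferase that follows the replication fork, had medians of 105.1 and 60.1 TPM in expressing cells and of 11.7 and 40.5 TPM in low cells of mouse 1 and mouse 2. Its adjusted difference was 2.10 in mouse 1 and 0.14 in mouse 2. Dnmt3a transcripts reached 1 TPM in 9 of 14 and 6 of 16 expressing cells and in 7 of 20 and 2 of 12 low cells. The adjusted differences of Dnmt3a were 1.18 and -0.14, with 4 of 10 alternatives above 0 in mouse 2. A gene-level value does not separate floxed exons from the rest of Dnmt3a. Of 10 genes of the methylation machinery, 0 passed a difference of 1 in both mice.

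A smaller set kept its difference through a pair of choices, the detected-gene term and the cells with S100a8 at 1000 TPM or more. With and without the detected-gene term, and with and without the cells with S100a8 at 1000 TPM or more, 142 genes were higher and 41 were lower by 1 or more in both mice in all 4 fits. The RPKM table and the pseudocount of 10 are not among these fits. Of the 6295 genes that entered without the cells with S100a8 at 1000 TPM or more, 57 were G2 and mitosis and 50 S phase genes. The 142 held 18 G2 and mitosis and 7 S phase genes. Of the 142, 42 were in any of the lists, and of the 41, 5 were. The smallest of the differences was 2.80 for Hist1h1e, 2.74 for Tk1, 2.72 for Ccnb1, 2.67 for Birc5, 2.55 for Ezh2, a histone methyltransferase, and 2.55 for Ube2c, a ubiquitin-conjugating enzyme of mitosis. For genes picked from the 41, it was -2.35 for Sh2d5, -1.97 for Bcl11a and -1.46 for Hbp1, a repressor of cell cycle genes. It was -1.38 for Pim2, -1.35 for Cish, -1.24 for Gpr56 and -1.18 for Ypel5. Other genes of the 41 lay between these, among them Cutc (-1.79) and Adprm (-1.63). Of the 9 stem and early progenitor genes given above as lower in both mice, 2 were among the 41, Bcl11a and Gpr56. Ezh2, Ube2c and Hbp1 were chosen after their values were seen.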

How the data were processed

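RNA-seq of 96 single cells from 2 mice was used. TPM values, the main unit, were deposited by the authors in a table whose name gives RSEM as its source, and log2 values were computed from them. RPKM values were deposited by the authors for 9310 gene identifiers, of which 9210 matched a symbol, 8236 were also in the TPM table and 1255 entered a fit. TopHat2, RSEM and Bowtie2 and the builds mm10 and mm9 are named in the submitters' processing notes; versions, strand, and which build belongs to which table are not given in the sources used here. Depth is therefore unknown, and 0 columns were without a sample. Of the RPKM values, 89.4% lay at the lowest value of their gene, and 94 of 96 cells ranked their genes most like the same cell of the TPM table (median rank correlation over genes 0.20). The median RPKM of Mki67, Rrm2 and Tk1 was equal in both classes of both mice. Top2a and Rfc4 had higher median RPKM in expressing cells of both mice.

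Differences of mean log2(TPM + 1) were computed in Python 3.11.15 with numpy 2.4.6, pandas 2.3.3 and scipy 1.17.1 by a linear fit per mouse with detected-gene number as a term, tested on simulated data. No test was made over cells. Exact (Clopper-Pearson) 95% intervals cover counting only. No doublet caller was run, since chambers had been scored by eye per the labels' protocols. Named genes were a fixed set, up to 4 members of each of 31 lists with the largest difference held in both mice, the most abundant member of each list, the 15 highest and 15 lowest over all genes with a mean of 10 TPM, and the 15 most like Mki67. The members, lists and rules were chosen with earlier results of these data known. Alternatives were no detected-gene term, other thresholds, a pseudocount of 10, the detected-gene range shared by the classes, Top2a as the splitting gene, other gene filters, the RPKM table, leaving out cells with S100a8 at 1000 TPM or more, and each cell in turn. Leaving out those cells without the term, and the 4-fit set, were added after seeing the data.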

Additional observations from a re-analysis of the deposited data

How the results depend on the processing

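Counts of genes past a difference of 1 in both mice (325 higher, 351 lower) were 729 and 100 without the detected-gene term, 89 and 102 with a pseudocount of 10, 31 and 34 in the RPKM table, and 966 and 102 without both the term and the cells with S100a8 at 1000 TPM or more. Of the 325 and 351, 307 and 84 were shared without the term, 132 and 136 at 100 TPM, 168 and 114 split on Top2a, and 150 and 219 (of 291 and 343 tested) without those cells. In a single mouse they were 1324 and 1422 (mouse 1) and 1193 and 1489 (mouse 2). The G2 and mitosis median (2.82, 1.90) was, in mouse 1 and mouse 2, 3.78 and 2.59 without the term, 3.48 and 2.80 for Mki67 below 1 against 100 TPM or more, 1.60 and 1.04 with a pseudocount of 10, 0.32 and 0.52 in RPKM, and 3.97 and 3.04 without term and those cells. In mouse 1 it was 3.59 over the shared gene range and 2.15 split on Top2a, and in mouse 2 it was 0.82 without those cells. The S phase median (1.46, 1.13) was 2.10 and 1.60 without the term, 0.84 and 0.50 with a pseudocount of 10, 0.20 and 0.12 in RPKM, and 2.29 and 1.59 without term and those cells. In mouse 1 it was 1.10 at 100 TPM, and in mouse 2 1.52 for below 1 against 100 TPM or more, 1.59 over the shared range, 1.71 split on Top2a and 0.044 without those cells. Leaving out each cell in turn gave 297 to 345 and 339 to 389 genes, G2 and mitosis medians of 2.60 to 3.07 and 1.60 to 2.23, and S phase medians of 1.07 to 1.76 and 0.78 to 1.5. These medians kept their sign throughout. Of 70 named genes of 1 or more in both mice, 16 of 320 values turned sign without the term, at 100 TPM or in RPKM: without the term Cd34 (0.032), Tbp (0.068), Prtn3 (0.59) and Ctsg (1.53) in mouse 1; at 100 TPM, in mouse 2, Rad54l (-0.13), Rbl1 (-0.96), Hist1h4d (-0.85), Psmb2 (0.14), Tbp (0.28) and Tox (0.10); in RPKM Cd34 (0.56), Cd48 (0.13), Plac8 (0.14), Ctsg (0.65) and Rpl30 (0.28) in mouse 1 and Calr (0.052) in mouse 2. Without the cells with S100a8 at 1000 TPM or more, of 66 tested, 9 turned in mouse 2 (Anxa5, Calr, Cd48, Dck, Plac8, Prtn3, Psmb2, Tfdp1, Trp53) and 0 in mouse 1. The cause was not tested. Both classes were compared within each mouse. No paired analysis was possible because a replicate number names 1 cell, which is in 1 class.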
